A study of Homo sapiens with 14 samples.

Results

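The genes described here are the 6 neutrophil-attracting CXC chemokines CXCL1, CXCL2, CXCL3, CXCL5, CXCL6 and CXCL8. They were taken by name from the 54628 gene symbols of each deposited table, as the ligands of the receptor CXCR2 that lie in the chemokine cluster of chromosome 4. All 6 passed the filter on low counts, which left 19126 genes to test. RNA came from IMR90 cells, a line of primary human lung fibroblasts, in 14 bulk libraries. Untreated cells without knockdown (WT, replicates 1 and 2) and untreated cells with an siRNA against HMGB2 (siHMGB2, 1 and 2) were the groups without drug. In all other groups inflachromene (ICM), which binds the chromatin proteins HMGB1 and HMGB2, was given at 10 µM for up to 6 days to induce senescence, and the controls of the knockdowns in ICM carry this treatment too. They were ICM alone (replicates 1 to 4) and ICM with an siRNA against SRRM2, BANF1 or CTCF (siSRRM2, siBANF1 and siCTCF, 2 libraries each). ICM 3, ICM 4 and both siCTCF libraries carry labels of another form than the other 10 do, and their cell line field reads IMR91 to IMR94 where the titles read IMR90. These 4 libraries are called the second set, and the other 10 the first set. The control of each knockdown in ICM was the ICM pair of the same set. The second set has no untreated library, so set and treatment cannot be told apart where ICM 3 and 4 are compared with WT. The labels name a pair of IMR90 isolates without tying them to libraries, and nothing says that replicates were separate cultures, so p-values measure only the spread between these libraries.

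CXC chemokines of this kind carry an ELR motif before their first cysteines and draw neutrophils through the receptors CXCR1 and CXCR2. In fibroblasts they are induced by interleukin 1 and tumour necrosis factor, mainly through NF-κB and C/EBPβ, and their mRNAs carry AU-rich elements that shorten their life. They are well-known parts of the secretory phenotype of senescent fibroblasts, and CXCR2 signalling has been described as reinforcing the senescent arrest.

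The checks of the libraries bear on the results as follows. Gene counts per library ran from 22336161 to 58257456, lowest in the second set. Small structural RNAs took 3.19% to 6.06% of gene counts in ICM 1, ICM 2 and the libraries labelled siSRRM2 and siBANF1, and 0.0116% to 0.0139% in the other 8. The same 6 libraries had 26.5% to 41.78% of reads given to no gene, against 12.75% to 18.02% in the other 8. That share was highest in the library labelled siBANF1 1. Both shares thus changed together with treatment where ICM 1 and 2 are compared with WT. Levels are given as CPM, the count of a gene divided by all gene counts of its library on the customary scale. HMGB2, the siHMGB2 target, measured 27.7 and 28.0 CPM in WT, and both siHMGB2 libraries had less, 3.18 and 3.52 CPM. CTCF was at 71.5 and 23.0 CPM in siCTCF against 94.9 and 91.9 CPM in ICM 3 and 4. The targets of the SRRM2 and BANF1 knockdowns did not set the labels apart. SRRM2 was below ICM 1 and 2 under both labels, with 76.1 and 76.4 CPM where the label reads siSRRM2 and 59.0 and 17.0 CPM where it reads siBANF1, against 238 and 112 CPM in ICM 1 and 2. BANF1 was not lower under either label. It was at 34.2 and 33.3 CPM where the label reads siSRRM2, and at 17.0 and 36.7 CPM where it reads siBANF1. ICM 1 and 2 had 13.5 and 32.7 CPM. The submitters' own names for these 4 tables carry the other knockdown, so they are called the libraries labelled siSRRM2 and the libraries labelled siBANF1 throughout. All 9 fibroblast markers were present in all libraries, with a summed level of 17860 and 24230 CPM in WT, 11190 and 4010 CPM in ICM 1 and 2, and 4212 and 2057 CPM in ICM 3 and 4. The part of the small RNAs, of the reads given to no gene and of the lower marker sums in the chemokine values was not tested. The 4 epithelial markers together reached at most 1.63 CPM and the 3 endothelial markers at most 1.73 CPM. Of 8 leukocyte and neutrophil markers, S100A8 and FCGR3B had no count in any library and PTPRC stayed at or below 0.0894 CPM, while CD14 reached 12.95 CPM in ICM 1.

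The genes fall into a stretch of 358.6 kb between the starts of CXCL8 and CXCL2 on chromosome 4 (GRCh38.p14, RefSeq). CXCL8 (interleukin 8, a ligand of both receptors) lies at 73740569 to 73743716, CXCL6 (granulocyte chemotactic protein) at 73836678 to 73838760 and CXCL1 (GRO-alpha) at 73869393 to 73871308, all on the plus strand. CXCL5 (ENA-78) at 73995642 to 73998677, CXCL3 (GRO-gamma) at 74036589 to 74038689 and CXCL2 (GRO-beta) at 74097040 to 74099195 lie on the minus strand. The 120 bases before each start are shown because these genes share a short motif there and because they varied together between libraries. Capitals mark GGAATTTCC, the letters of an NF-κB site.
CXCL1, chr4:73869273-73869392, plus strand: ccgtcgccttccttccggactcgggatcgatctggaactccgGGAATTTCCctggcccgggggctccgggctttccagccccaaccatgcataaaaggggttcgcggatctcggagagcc
CXCL2, chr4:74099196-74099315, minus strand: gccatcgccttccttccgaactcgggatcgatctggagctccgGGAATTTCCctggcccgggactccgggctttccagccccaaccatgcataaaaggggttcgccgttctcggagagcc
CXCL3, chr4:74038690-74038809, minus strand: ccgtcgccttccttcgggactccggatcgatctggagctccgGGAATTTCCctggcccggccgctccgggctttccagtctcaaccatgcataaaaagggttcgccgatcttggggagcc
CXCL5, chr4:73998678-73998797, minus strand: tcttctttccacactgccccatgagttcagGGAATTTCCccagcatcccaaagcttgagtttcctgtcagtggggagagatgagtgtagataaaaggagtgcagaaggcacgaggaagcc
CXCL6, chr4:73836558-73836677, plus strand: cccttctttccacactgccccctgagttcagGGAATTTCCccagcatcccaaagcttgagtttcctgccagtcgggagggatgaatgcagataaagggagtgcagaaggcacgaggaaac
CXCL8, chr4:73740449-73740568, plus strand: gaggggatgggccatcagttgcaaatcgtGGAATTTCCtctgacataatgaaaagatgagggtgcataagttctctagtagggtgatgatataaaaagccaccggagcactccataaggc
These sequences were read from RefSeq promoters of GRCh38.p14, in which all 6 genes had an entry. GGAATTTCC was found in 6 of 6, with its first base 91 to 77 bases before the start. On either strand of the 250 bases before the start it was found in 145 of 34943 RefSeq promoters, or 0.415%. The longer NF-κB consensus, which overlaps these letters, was found in 5 of the 6 and in 9.95% of all promoters. CXCL8 lacked it and alone held the AP-1 letters TGANTCA (6.59% of promoters) and, on its own strand, TATAAA (6.82%). The C/EBP letters TTGCNNAA were found only in CXCL2 (9.06%). The AP-1 match, 137 to 131 bases before the start, and the C/EBP match, 188 to 181 bases before it, lie outside the shown stretches. Only exact letters were searched, so sites that depart from them are missed. Aligned with gaps allowed, the shown stretches of CXCL1 and CXCL2 matched at 94.2% of the 120 bases. Those of CXCL1 and CXCL3 matched at 90.8%, and those of CXCL5 and CXCL6 at 91.7%. CXCL8 matched the others at 46.7% to 53.3% of the 120 bases. A motif match is a description of these letters and not a measured binding site.

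CXCL1, CXCL2 and CXCL3 are also close in their transcripts. Of all 50-base windows of the CXCL2 mRNA, 9.24% occur unchanged in CXCL1 or CXCL3, against 5.73% for CXCL1 and 5.26% for CXCL3. CXCL5 shared 1.12% of windows with GLYR1, and CXCL6 and CXCL8 shared none. Counts of CXCL1, CXCL2 and CXCL3 are therefore less certain than the others in the part of reads that fall in such windows.

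CXCL8, per length, was the most abundant of the 6 in all 14 libraries. Its level was 1759 and 747 CPM in WT 1 and 2, 863 and 259 CPM in siHMGB2, 776 and 404 CPM in ICM 1 and 2, 176 and 183 CPM in both libraries labelled siSRRM2, and 6127 and 237 CPM in those labelled siBANF1. It was 143 and 70.2 CPM in ICM 3 and 4 and 149 and 70.3 CPM in siCTCF. The highest library thus exceeded WT 1, and the lowest were ICM 4 and siCTCF 2. By group mean the order was the libraries labelled siBANF1 (3182 ± 4165 CPM, SD, n = 2), WT (1253 ± 715), ICM 1 and 2 (590 ± 263), siHMGB2 (561 ± 427), the libraries labelled siSRRM2 (179 ± 5.02), siCTCF (109.7 ± 55.8) and ICM 3 and 4 (106 ± 51.3). Neighbours in this order overlapped, except siHMGB2 above the libraries labelled siSRRM2, and these above siCTCF.

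CXCL1 was plainly expressed in all 10 libraries of the first set and was at a few counts in the second. It was at 294 and 143 CPM in WT, 155 and 49.8 CPM in siHMGB2, 34.9 and 16.2 CPM in ICM 1 and 2, 39.1 and 35.2 CPM in both libraries labelled siSRRM2 and 426 and 8.05 CPM in those labelled siBANF1. ICM 3 and ICM 4 had 1 and 3 counts and siCTCF 1 and 2 had 2 and 1 counts, which is 0.0373 to 0.118 CPM. The upper 95% Poisson limit of these 4 libraries, which covers counting error only, was at most 0.346 CPM. No library of the second set therefore came near the lowest of the first, the library labelled siBANF1 2. Group means were 218 ± 107 CPM in WT, 217 ± 295 in the libraries labelled siBANF1, 102 ± 74.1 in siHMGB2, 37.2 ± 2.69 in those labelled siSRRM2, 25.6 ± 13.2 in ICM 1 and 2, 0.0800 ± 0.0540 in ICM 3 and 4 and 0.0634 ± 0.0369 in siCTCF (SD, n = 2 each). WT, siBANF1-labelled and siHMGB2 libraries overlapped in this order, as did ICM 3 and 4 with siCTCF, and the other neighbours did not overlap. The gap between ICM 1 and the library labelled siSRRM2 2 was within counting error.

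CXCL5 showed the same split between the sets. It was at 139 and 51.5 CPM in WT, 35.6 and 12.0 CPM in siHMGB2, 38.8 and 5.97 CPM in ICM 1 and 2, 13.1 and 13.8 CPM in both libraries labelled siSRRM2 and 129 and 3.61 CPM in those labelled siBANF1. In the second set it had 4, 0, 2 and 2 counts in ICM 3, ICM 4, siCTCF 1 and siCTCF 2. The group means fell in the order WT (95.3 ± 61.9 CPM), siBANF1-labelled (66.5 ± 88.9), siHMGB2 (23.8 ± 16.7), ICM 1 and 2 (22.4 ± 23.2), siSRRM2-labelled (13.4 ± 0.499), ICM 3 and 4 (0.0837 ± 0.118) and siCTCF (0.0821 ± 0.0105; SD, n = 2 each). All neighbours in this order overlapped except at the step from the libraries labelled siSRRM2 to the second set.

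CXCL6, the other ligand known to act on both receptors, was the scarcest per length in all 10 libraries of the first set. It was at 7.42 and 3.32 CPM in WT, 7.76 and 4.42 CPM in siHMGB2, 0.881 and 0.682 CPM in ICM 1 and 2, 0.494 and 0.563 CPM in both libraries labelled siSRRM2 and 4.79 and 0.0343 CPM in those labelled siBANF1, where the last value is 2 counts. It had no count in any of the 4 libraries of the second set, where 3 counts would have been 0.112 to 0.134 CPM. CXCL6 was the only member whose mean was highest in siHMGB2 (6.09 ± 2.36 CPM, SD, n = 2), which overlapped WT (5.37 ± 2.90). Below them came the libraries labelled siBANF1 (2.41 ± 3.37), ICM 1 and 2 (0.781 ± 0.141) and the libraries labelled siSRRM2 (0.528 ± 0.0483), with no overlap between the last pair of groups or between them and the second set. The gap between ICM 2 and the library labelled siSRRM2 2 was within counting error.

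CXCL3 and CXCL2 did not show that split. CXCL3 was at 42.7 and 19.4 CPM in WT, 13.5 and 6.27 CPM in siHMGB2, 11.2 and 9.64 CPM in ICM 1 and 2, 11.4 and 9.30 CPM in both libraries labelled siSRRM2, 142 and 7.38 CPM in those labelled siBANF1, 8.70 and 2.60 CPM in ICM 3 and 4 and 7.39 and 2.32 CPM in siCTCF. ICM 3 and siCTCF 1 thus lay within the range of siHMGB2. CXCL2 was at 20.3 and 11.6 CPM in WT, 12.3 and 3.96 CPM in siHMGB2, 2.38 and 7.20 CPM in ICM 1 and 2, 1.28 and 2.10 CPM in both libraries labelled siSRRM2, 51.2 and 5.12 CPM in those labelled siBANF1, 2.13 and 3.00 CPM in ICM 3 and 4 and 2.19 and 2.05 CPM in siCTCF. Its lowest level was in a library of the first set, labelled siSRRM2 1. Between neighbours in the order of group means, CXCL2 overlapped throughout, and CXCL3 overlapped except at the step from WT (31.0 ± 16.5 CPM) to ICM 1 and 2 (10.4 ± 1.11; SD, n = 2 each).

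**Figure D1:**
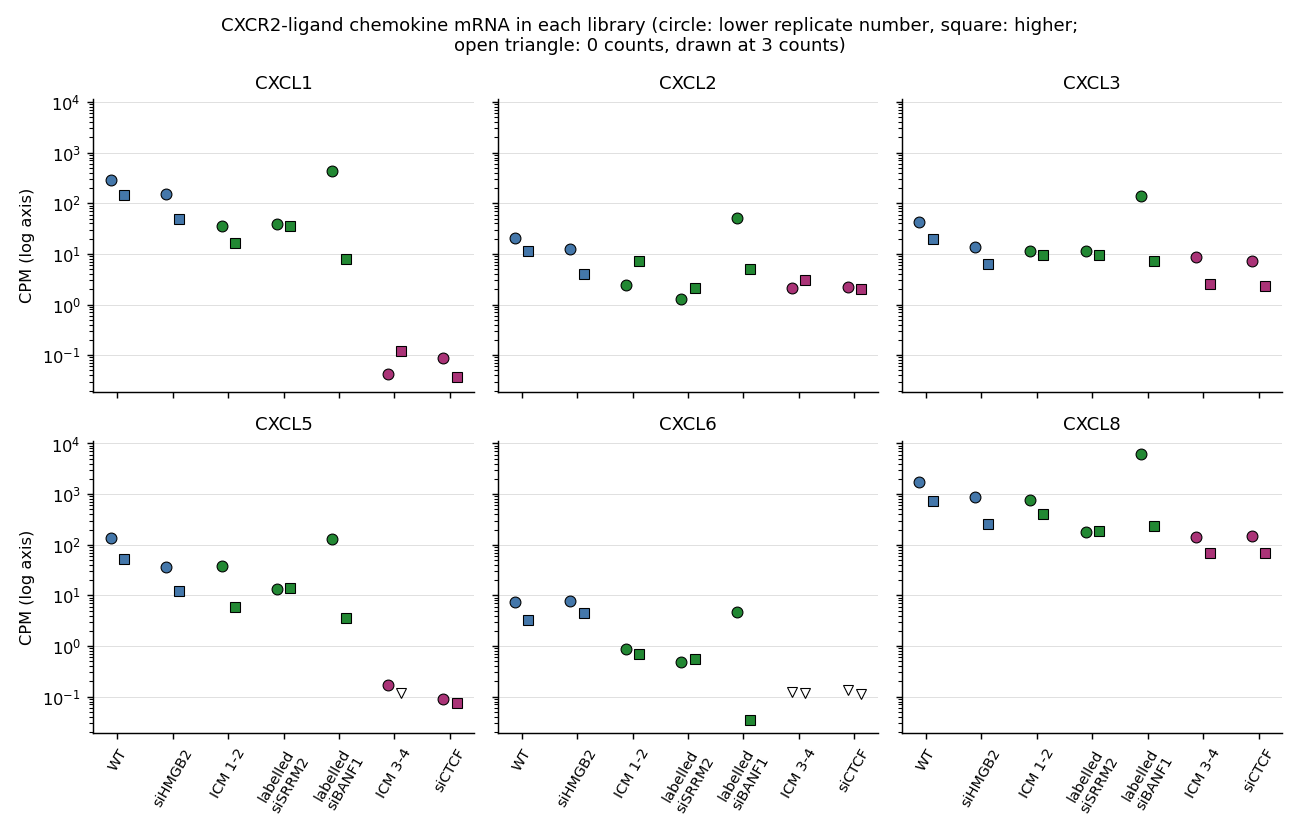
CPM of each gene in each of the 14 libraries on a log axis, 1 panel per gene and 1 column per group, with the lower replicate number as a circle and the higher as a square. CXCL1, CXCL5 and CXCL6 drop to at most 0.167 CPM in ICM 3, ICM 4 and siCTCF, while CXCL8, CXCL3 and CXCL2 stay at 2.05 CPM or more there.

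The make-up of the chemokine mRNA, compared per kilobase of mRNA, varied between groups as well as its amount. CXCL8 made up 70.9% to 73.5% of the summed CPM per kb of the 6 genes in WT and siHMGB2 and 66.2% to 69.0% in the libraries labelled siSRRM2. It made up 85.4% to 88.4% in ICM 1, ICM 2 and the libraries labelled siBANF1, and 89.2% to 91.35% in the second set. CXCL1 held second place in all 10 libraries of the first set. Its share was 18.9% to 21.3% in WT and siHMGB2, 6.18% and 5.48% in ICM 1 and 2, and 22.8% and 20.7% in the libraries labelled siSRRM2. In the second set it was 0.0407% to 0.234%, and CXCL3 or CXCL2 held second place. The CXCL1 shares of the second set rest on 1 to 3 counts per library. The libraries labelled siSRRM2 thus had a CXCL1 share near that of untreated cells at a summed level of all 6 genes of 241 and 244 CPM, below the 336 CPM of siHMGB2 2, the lowest of the untreated libraries. These shares carry no test.

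**Figure D2:**
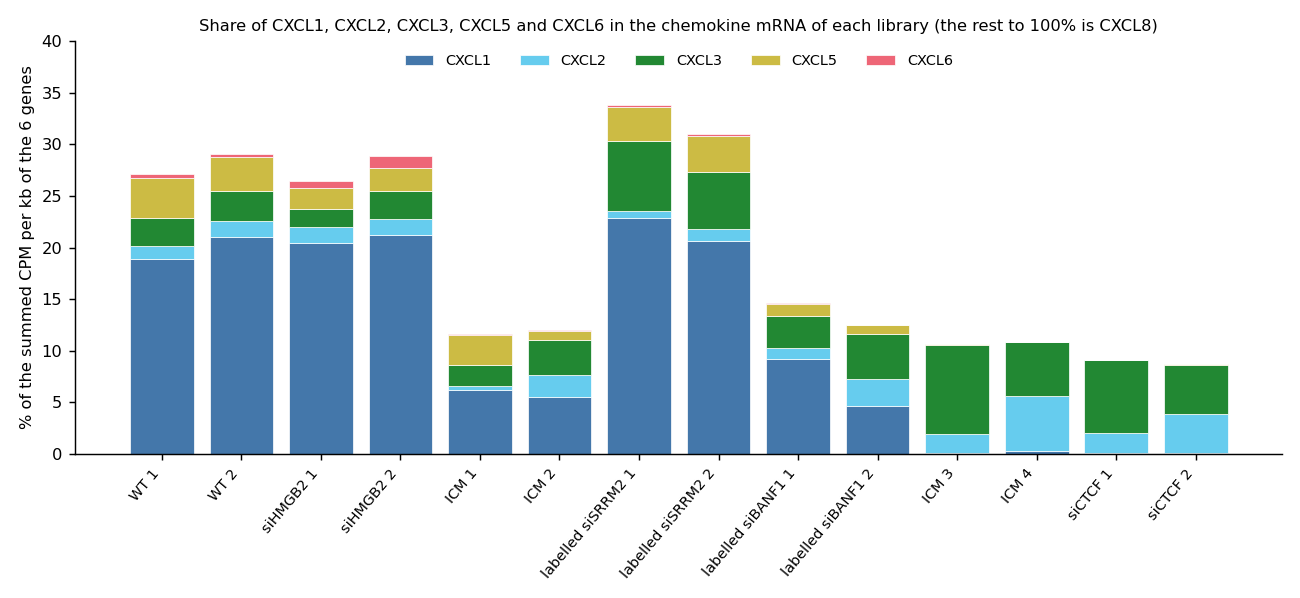
Stacked bars give the percentage of the summed CPM per kb of the 6 genes that CXCL1, CXCL2, CXCL3, CXCL5 and CXCL6 made up in each library, and the rest to 100% is CXCL8. The blue CXCL1 segment is 18.9% to 22.8% of the total in WT, siHMGB2 and the libraries labelled siSRRM2, and is at most 0.234% in the last 4 bars.

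The first comparison asked how the chemokines of ICM-treated cells compared with those of untreated cells in the first set. In ICM 1 and 2 the 6 genes had log2 fold changes against WT of -1.20 (CXCL8), -1.70 (CXCL3), -1.90 (CXCL2), -2.17 (CXCL5), -2.90 (CXCL6) and -3.20 (CXCL1). Both ICM libraries lay below both WT libraries for all but CXCL8, whose value in ICM 1 was above WT 2. None of the 6 passed the test in edgeR's quasi-likelihood fit, in DESeq2 or in voom, and 1, CXCL1, had an unadjusted p under 0.05. For comparison, 13.5% of all genes tested were called, and 25.0% were lower in both ICM libraries. An unadjusted p under 0.05 was found for 5852 of all 19126 genes. CXCL1 had an SE of 1.26 and a 95% interval of -5.98 to -0.43 (edgeR, Benjamini-Hochberg adjusted p = 0.113). The median log2 fold change of the 6 was -2.04, against 0.10 over all genes tested. In bulk RNA, fewer expressing cells and less RNA per cell cannot be told apart. With every gene of at least 1 count tested in place of the filtered set, all 6 were called lower in edgeR, as were 5.65% of the genes then tested. The main fit takes its spread from all 7 groups, the unlike pair labelled siBANF1 included. With only WT and ICM 1 and 2 fitted, 0 of the 6 and 0 of all genes were called.

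In the second set most of the chemokines were far lower. Against WT, ICM 3 and 4 had lower CXCL1, CXCL5, CXCL6, CXCL8 and CXCL2, which is 5 of 6 members called lower, where 16.0% of all genes tested were called lower and 30.3% in either direction. Every member was lower in both ICM libraries than in both WT libraries, as were 33.3% of all genes. The log2 fold change was -11.58 for CXCL1 (SE 1.99, edgeR adjusted p = 0.00307), and the pooled counts, 4 against 15063, gave a 2650-fold lower level with a counting interval of 1035 to 9729. CXCL5 changed by -10.36 on the log2 scale (SE 2.08, edgeR adjusted p = 0.00606), from 6544 to 4 pooled counts, or 1151-fold (449.5 to 4227). CXCL6 was at least 86.8-fold lower, taking 3 counts over both ICM libraries as the limit of a count of 0 (edgeR adjusted p = 0.0191).

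The genes with more than a few counts in ICM 3 and 4 had fold changes nearer to 0 on the log2 scale. The log2 fold change of CXCL8 was -3.78 (SE 1.23, edgeR adjusted p = 0.0401) and that of CXCL2 was -2.88 (SE 0.96, edgeR adjusted p = 0.0436). CXCL3 was at -2.67 (SE 1.13, edgeR adjusted p = 0.0940) and did not pass. DESeq2 called all 6 lower, with 19.1% of all genes, and voom called all 6 lower, with 26.9%. Leaving out any of the 4 libraries ended the calls of CXCL8 and CXCL2, and left 1 to 3 members called. CXCL1 was called without each of them. CXCL5 lost its call without ICM 4 (edgeR adjusted p = 0.0541), and CXCL6 lost its call without WT 1, ICM 3 or ICM 4 (edgeR adjusted p = 0.0624 to 0.0899).

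The difference between the sets was tested directly, by ICM 3 and 4 against ICM 1 and 2. CXCL1 (log2 fold change -8.38, SE 1.87, edgeR adjusted p = 0.0124) and CXCL5 (-8.19, SE 2.00, edgeR adjusted p = 0.0180) were lower in the second set, which is 2 of 6 members where 11.0% of all genes were called lower and 19.5% in either direction. All but CXCL2 were below both ICM 1 and ICM 2 in ICM 3 and 4, as were 27.1% of all genes. Pooled counts put CXCL1 309-fold lower (120.4 to 1134) and CXCL5 265-fold lower (103 to 972). CXCL6 was at least 12.8-fold lower and not called (edgeR adjusted p = 0.0920). CXCL8 was at -2.58 (95% interval -5.15 to -0.01), CXCL2 at -0.98 and CXCL3 at -0.97 (-3.35 to 1.42), none of them called. Both calls were lost in voom (adjusted p = 0.201 and 0.236) and without ICM 3 or ICM 4 (edgeR adjusted p = 0.0801 to 0.112), and that of CXCL5 was also lost without ICM 1 (edgeR adjusted p = 0.0822).

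**Figure D3:**
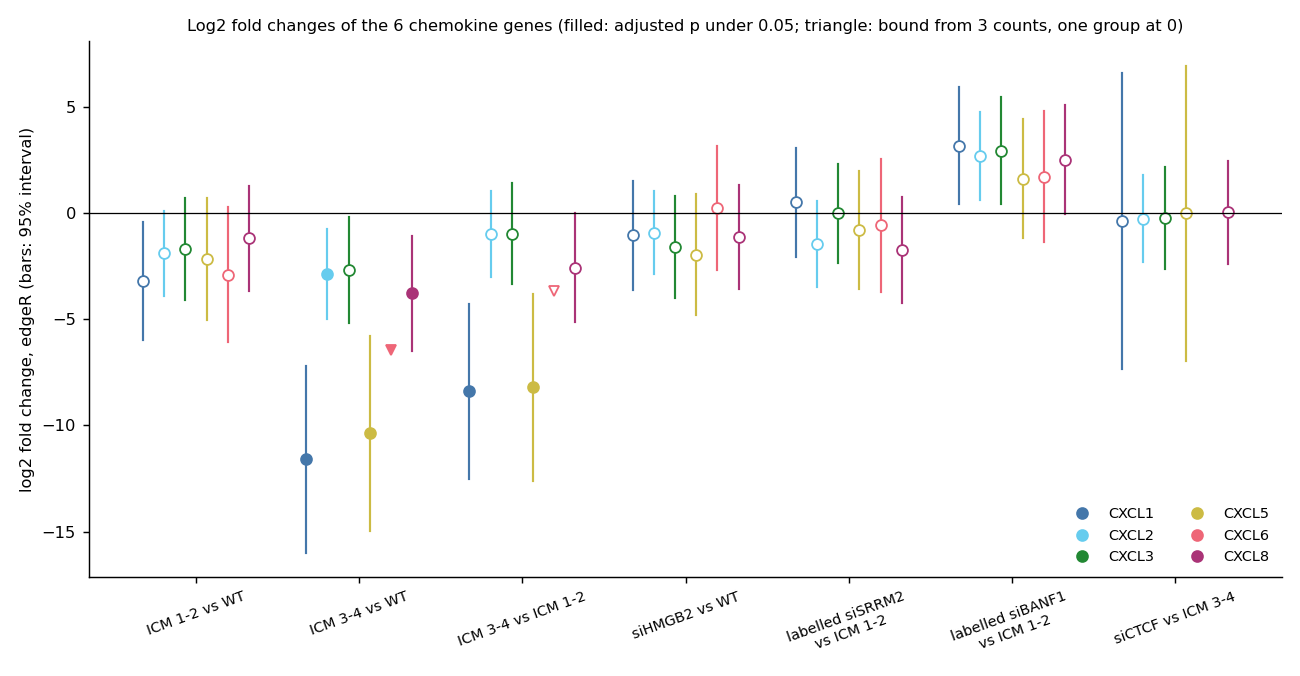
Log2 fold changes of the 6 genes in the 7 comparisons with 95% intervals from edgeR, filled where the adjusted p was under 0.05, with a triangle at the bound from 3 counts where a group had no count. CXCL1 at -11.58 and CXCL5 at -10.36 stand lowest in ICM 3 and 4 against WT, while the changes of CXCL8, CXCL2 and CXCL3 there lie between -3.78 and -2.67.

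Knockdown of HMGB2 in untreated cells went with lower values of 5 of the 6, none of which passed the test. The log2 fold changes were -1.96 for CXCL5, -1.61 for CXCL3, -1.12 for CXCL8, -1.05 for CXCL1, -0.93 for CXCL2 and 0.23 for CXCL6. Both siHMGB2 libraries lay below both WT libraries only for CXCL5 and CXCL3, that is for 2 of 6 members where 29.3% of all genes did so. In edgeR 0 of 6 members were called, as were 0.0% of all genes, and DESeq2 and voom called none of the 6 either, and none had an unadjusted p under 0.05. In a fit to the WT and siHMGB2 libraries alone, CXCL5 (edgeR adjusted p = 0.00872) and CXCL3 (edgeR adjusted p = 0.00684) were called lower, where 4.74% of all genes tested were. CXCL8 in siHMGB2 1 exceeded WT 2, and the 95% interval of its log2 fold change was -3.57 to 1.34.

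The libraries labelled siSRRM2 had chemokine levels close to each other and on both sides of ICM 1 and 2. CXCL8 was lower than in both (log2 fold change -1.75, 95% interval -4.24 to 0.75), as were CXCL2 (-1.47) and CXCL6 (-0.57). CXCL1 was above both ICM libraries (0.51, -2.06 to 3.07), while CXCL5 (-0.79) and CXCL3 (-0.02) overlapped them. CXCL1 was at 35.2 CPM (95% Poisson limits 33.55 to 37.0) in library 2 and 34.9 CPM (33.26 to 36.59) in ICM 1. That gap is within counting error, as are the gaps of CXCL2 and CXCL6 to the nearest ICM library. In edgeR 0 of 6 were called, where 0.178% of all genes were, none had an unadjusted p under 0.05, and DESeq2 and voom called none. Members lower without overlap were 3 of 6 against 21.0% of all genes, and the 1 member higher compares with 20.5%. The sign of CXCL5 turned to 1.24 and that of CXCL3 to 0.17 without ICM 1.

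The libraries labelled siBANF1 held the highest library of the series for CXCL8, CXCL1, CXCL3 and CXCL2, and a much lower one. Library 1 was above library 2 by 25.8-fold for CXCL8, 52.9-fold for CXCL1, 35.9-fold for CXCL5, 19.2-fold for CXCL3, 10.0-fold for CXCL2 and 140-fold for CXCL6, the last against 2 counts. Against ICM 1 and 2 the log2 fold changes were 1.62 (CXCL5) to 3.17 (CXCL1, 95% interval 0.40 to 5.94), and every member overlapped, while 6.24% of all genes were higher and 8.22% lower without overlap. By library, every member was higher in library 1 than in ICM 1 and lower in library 2 than in ICM 2. CXCL8 was at 6127 against 776 CPM and at 237 against 404 CPM. Over all genes tested, the median absolute log2 difference was 0.29 between library 1 and ICM 1 and 0.13 between library 2 and ICM 2. Crosswise it was 0.61 and 0.57. The labels do not say that the numbers pair libraries. In edgeR 0 of 6 were called, as were 0.0% of all genes. DESeq2 and voom called none of the 6, while CXCL1, CXCL3 and CXCL2 had an unadjusted p under 0.05 in edgeR. Of all 19126 genes, 591 had an unadjusted p under 0.05. Without the library labelled siBANF1 1, 5 of the 6 changes turned negative, between -4.43 and -0.55. Without the library labelled siBANF1 2, CXCL1 was called higher (log2 fold change 4.14, edgeR adjusted p = 0.0372), as were 0.308% of all genes, which is a single library against 2 and assumes that it varies like the other groups.

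The siCTCF libraries had chemokine levels near those of their controls. CTCF itself was at 71.5 and 23.0 CPM there against 94.9 and 91.9 CPM in ICM 3 and 4, so its mRNA was lowered unequally. CXCL8 had a log2 fold change of 0.04 (95% interval -2.38 to 2.47), CXCL3 of -0.23 (-2.63 to 2.18) and CXCL2 of -0.27 (-2.32 to 1.79), and all overlapped ICM 3 and 4, while 7.52% of all genes were higher and 9.55% lower without overlap. CXCL1, with 3 counts against 4, had a ratio of 0.753 with a counting interval of 0.110 to 4.45, and CXCL5, with 4 against 4, of 1.00 (0.187 to 5.39). CXCL6 was at 0 in both groups. In edgeR 0 of 6 were called and 0.0% of all genes, none of the 6 had an unadjusted p under 0.05, and DESeq2 and voom called none. The intervals do not show that the groups were alike. By library, CXCL8 in siCTCF 1 (149 CPM) was near ICM 3 (143 CPM) and siCTCF 2 (70.3 CPM) near ICM 4 (70.2 CPM).

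The members' median difference between replicates was above that of all genes tested in 6 of the 7 groups, and furthest above it in WT, siHMGB2 and the libraries labelled siBANF1. Between WT 1 and WT 2, where all genes tested had a median absolute log2 difference of 0.15, the 6 chemokines had a median of 1.08, and all 6 were higher in WT 1. Between siHMGB2 1 and 2 the values were 1.53 against 0.19, again with all 6 higher in library 1. The libraries labelled siBANF1 differed by 4.43 against 0.59, and ICM 1 and 2 by 1.01 against 0.58, with CXCL2 alone higher in ICM 2. The medians were 0.12 against 0.08 between the libraries labelled siSRRM2, 0.41 against 0.28 between ICM 3 and 4, and 0.11 against 0.25 in siCTCF. In the last 2 pairs these medians include 3 genes with 4 counts or fewer, while CXCL8 was 2.03-fold and CXCL3 3.34-fold higher in ICM 3 than in ICM 4, and CXCL8 was 2.12-fold and CXCL3 3.19-fold higher in siCTCF 1 than in siCTCF 2. CXCL2 was lower in ICM 3 than in ICM 4, at 2.13 against 3.00 CPM, and 1.07-fold higher in siCTCF 1 than in siCTCF 2. Of all genes tested, 0.408% differed between the WT libraries by at least the members' median, 0.0993% in siHMGB2 and 0.188% in the siBANF1-labelled libraries. The share was 26.8% in ICM 1 and 2, 36.1% in the libraries labelled siSRRM2, 34.9% in ICM 3 and 4 and 74.1% in siCTCF.

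Across the 14 libraries the log2(CPM + 0.5) of CXCL1 and CXCL5 had a Pearson r of 0.984 (0.937 over the 10 libraries of the first set), the highest of the 15 pairs of members. CXCL8 and CXCL3 followed at 0.935 (0.914 over 10), and CXCL6 and CXCL3 were lowest at 0.682 (0.54 over 10). These values describe libraries that share batch, depth and treatment, and they carry no p.

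The 6 other genes, of 13117 with a mean of at least 1 CPM, whose log2(CPM + 0.5) was most like the mean of the chemokines were C3 (r = 0.974 over 14 libraries), CTSS (0.972), PTGS2 (0.972), PTGFR (0.971), IL1B (0.970) and IL6 (0.970). Over the first set alone r was 0.926 to 0.957. PTGS2, the inducible cyclooxygenase, was at 1019 and 581 CPM in WT, 329 and 56.6 CPM in ICM 1 and 2, 2279 and 48.5 CPM in both libraries labelled siBANF1 and 5.15 and 4.26 CPM in ICM 3 and 4. IL6, a cytokine, was at 505 and 288 CPM in WT, 64.7 and 30.8 CPM in ICM 1 and 2, 680 and 17.3 CPM in both libraries labelled siBANF1 and 0.669 and 0.631 CPM in ICM 3 and 4. The highest library of both was the one labelled siBANF1 1, as for 4 of the 6 chemokines. The 6 genes were picked for their likeness over these same libraries, so shared high and low libraries follow from the choice.

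**Figure D4:**
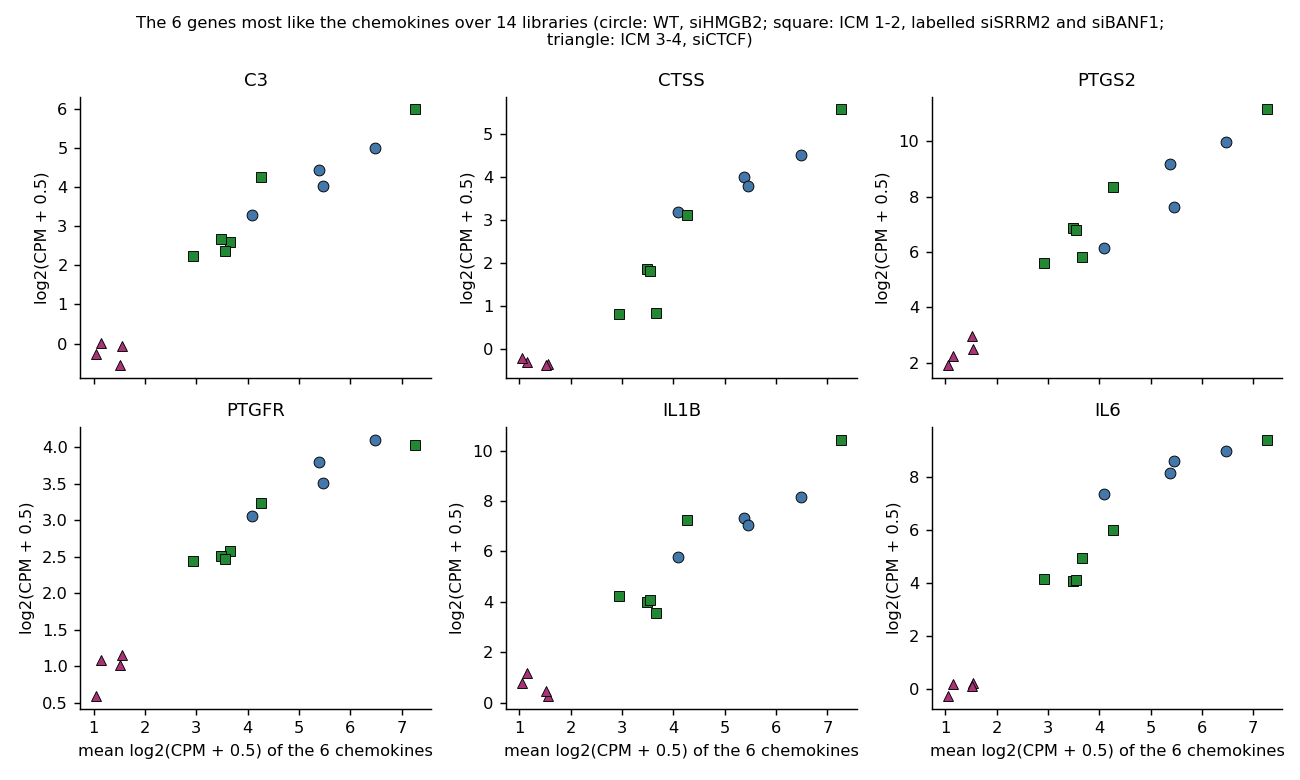
Each panel plots log2(CPM + 0.5) of 1 of the 6 most similar genes against the mean log2(CPM + 0.5) of the 6 chemokines, with 1 point per library and a symbol for each kind of library. The triangles of ICM 3, ICM 4 and siCTCF form a separate low cluster in all 6 panels, and r over the other 10 libraries was 0.926 to 0.957. The genes were picked for this likeness over the 14 libraries, so the shared pattern follows from the choice.

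The receptors of these chemokines were at or near 0 counts. CXCR1 and the decoy receptor ACKR1 had no count in any library, and CXCR2 reached 0.0972 CPM at most, in siHMGB2 2. Of the platelet chemokines of the same cluster, PPBP had no count, PF4 stayed below the filter and PF4V1 was tested. PF4V1 was at 0.894 and 0.686 CPM in WT, 0.471 and 0.129 CPM in ICM 1 and 2 and 0 in all 4 libraries of the second set. It was at least 12.9-fold lower in ICM 3 and 4 than in WT (edgeR adjusted p = 0.0083).

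Of 26 genes upstream of NF-κB (interleukin 1, tumour necrosis factor, toll-like receptors and their adaptors), 21 were tested, with 3 called higher and 6 lower in ICM 3 and 4 against WT, where 30.3% of all genes were called and 16.0% lower. The largest changes were in IL1B (log2 fold change -7.75, SE 1.90), IL1A (-5.02, SE 1.59) and the interleukin 1 receptor IL1R1 (-4.47, SE 1.22), all lower. IL1B was at 287 and 161 CPM in WT, 152 and 11.3 CPM in ICM 1 and 2, 1366 and 18.3 CPM in both libraries labelled siBANF1 and 0.711 and 1.77 CPM in ICM 3 and 4. In ICM 1 and 2 against WT, 1 was called higher and 2 lower, where 13.5% of all genes were called and 6.87% lower, with the adaptor MYD88 at -1.99 (SE 0.26), IKBKG, a subunit of the IκB kinase complex, at -1.07 (SE 0.19) and the ubiquitin ligase TRAF6 at 0.86 (SE 0.24). TNF itself had no count in any library. The list median was -0.27 in both comparisons, against -0.02 over all genes for ICM 3 and 4 and 0.10 for ICM 1 and 2.

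Of 14 transcription factors known to act on these genes, 13 were tested, and the same shares of all genes apply. In ICM 3 and 4 against WT, 4 were called higher and 4 lower, led by CEBPD (log2 fold change -5.96, SE 1.02), FOSL1 (2.65, SE 0.35) and ATF3 (2.22, SE 0.52). In ICM 1 and 2 against WT, 3 were called lower, CEBPB (-2.73, SE 0.40), the AP-1 subunit JUNB (-1.71, SE 0.46) and the NF-κB subunit RELA (-0.78, SE 0.23). RELA moved the other way in the second set, at 215 and 231 CPM in ICM 3 and 4 against 74.9 and 73.6 CPM in WT and 37.8 and 58.0 CPM in ICM 1 and 2 (log2 fold change between the ICM sets 2.12, SE 0.24, edgeR adjusted p = 7.26e-04). CEBPD was at 283 and 260 CPM in WT, 116 and 18.5 CPM in ICM 1 and 2 and 7.49 and 2.64 CPM in ICM 3 and 4. The libraries labelled siSRRM2 had CEBPD at 246 and 250 CPM. The list median was -0.40 for ICM 3 and 4 and -0.78 for ICM 1 and 2 against WT.

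Of 9 NF-κB feedback genes, 8 were tested, with 1 called higher and 4 lower in ICM 3 and 4 against WT (30.3% of all genes called, 16.0% lower). TNFAIP3, which ends NF-κB signalling, had the largest change (-5.33, SE 1.19), followed by NFKBIA (-2.32, SE 0.69) and NFKBIZ (-2.26, SE 0.71). In ICM 1 and 2 against WT, edgeR called 0 of the 8 and voom 0, while DESeq2 called 1, and 1 had an unadjusted p under 0.05. Of all 19126 genes, 5852 had an unadjusted p under 0.05 in this comparison. The list median was -1.78 and -0.64 in these comparisons. Of 10 genes that act on the decay of AU-rich mRNAs, 4 were called lower in ICM 1 and 2 against WT, where 6.87% of all genes were, led by HNRNPD (-2.50, SE 0.34), ZFP36L2 (-2.33, SE 0.44) and ZFP36 (-1.92, SE 0.53). In ICM 3 and 4 against WT, 2 of the 10 were called lower, where 16.0% of all genes were, ZFP36L2 (-2.39, SE 0.44) and HNRNPD (-1.16, SE 0.33). The list median was -1.48 in ICM 1 and 2 and -0.48 in ICM 3 and 4. ZFP36 and ZFP36L2 bind AU-rich elements and speed the decay of such mRNAs.

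Between the ICM sets, 9 of the 53 tested genes of these lists were called higher and 8 lower in ICM 3 and 4. Of all genes tested, 11.0% were called lower there and 19.5% in either direction. In the 4 knockdown comparisons none of the 53 was called in edgeR. For siHMGB2 against WT and for siCTCF against ICM 3 and 4, none had an unadjusted p under 0.05, none was called in DESeq2, and voom called 1 and 0. For the libraries labelled siSRRM2, 6 had an unadjusted p under 0.05, with 4 called in DESeq2 and 0 in voom. For those labelled siBANF1 the counts were 10, 0 and 0. Over all 19126 genes these counts were 2168, 727 and 7 for the siSRRM2-labelled libraries and 591, 17 and 0 for the siBANF1-labelled ones. They were 908, 73 and 924 for siHMGB2 and 125, 0 and 0 for siCTCF.

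The neighbours of the chemokine genes on chromosome 4 did not all follow them. Within 500 kb on either side of the 6 genes RefSeq lists 31 other genes, of which 25 were in the count tables and 9 were tested. In ICM 1 and 2 against WT, EREG, an EGF family ligand, was called lower (log2 fold change -2.65, SE 0.77, edgeR adjusted p = 0.0450), as was LOC105377276 (-2.22), and ANKRD17-DT was called higher (2.02). LOC105377276 overlaps EREG only at 1 end, from 74365145 to 74365341, and reads of that stretch may not be told apart. AREG, another EGF family ligand next to EREG, was at 534 and 368 CPM in WT, 43.9 and 5.64 CPM in ICM 1 and 2 and 17.6 and 0.828 CPM in ICM 3 and 4 and was not called in either. In ICM 3 and 4 against WT, ANKRD17 was called higher (0.77, SE 0.23, edgeR adjusted p = 0.0273) and, among the neighbours, PF4V1 alone was called lower. MTHFD2L, next to CXCL2, had log2 fold changes of 0.39 and 0.74 in the 2 comparisons and was not called. PF4V1 lies between CXCL6 and CXCL1, so the 4 genes with at most 4 counts per library in the second set were CXCL6, PF4V1, CXCL1 and CXCL5, which are next to each other among the tested genes, while CXCL8 on one side and CXCL3 and CXCL2 on the other kept counts of 49 or more.

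**Figure D5:**
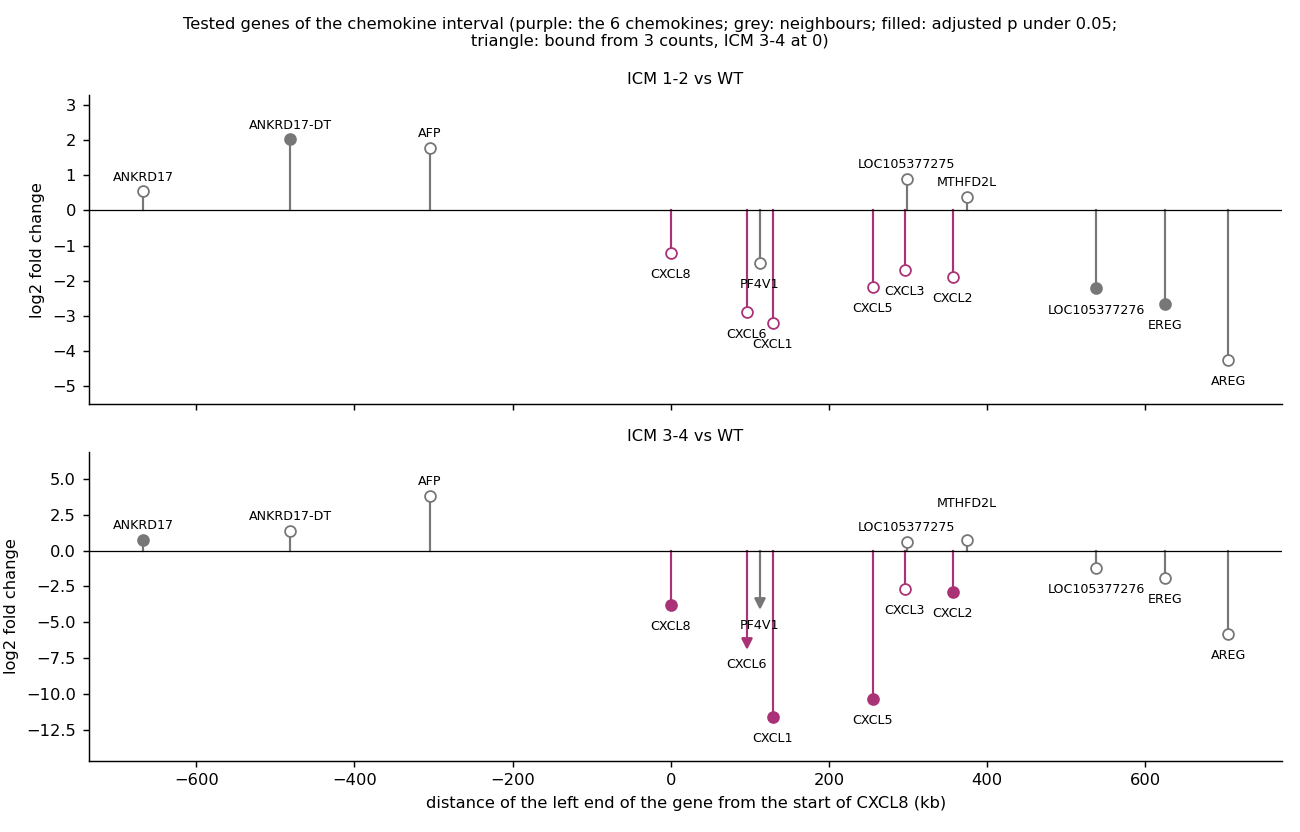
Log2 fold changes of the tested genes of the interval against WT, for ICM 1 and 2 (upper panel) and ICM 3 and 4 (lower panel), by distance in kb from the start of CXCL8; the panels have different vertical scales, and a triangle is the bound from 3 counts for a gene with no count in ICM 3 and 4. In the lower panel the lines of CXCL1 at -11.58 and CXCL5 at -10.36, and the bounds of CXCL6 and PF4V1, stand between CXCL8 at -3.78 and CXCL3 at -2.67.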

How the data were processed

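Each library has a table of unnormalized counts by gene symbol, used here as the authors deposited it. Per the submitters' processing notes, STAR 2.7.3a, HTSeq 0.12.4, DESeq2 1.36.0 and the build hg38 were used, while the annotation and the strand setting are not given in the sources used here. Without a stated strand, reads of overlapping genes on opposite strands cannot be told apart. Per the labels, total RNA was made into TruSeq libraries that were read from both ends. The 5 lines for reads given to no gene, 12.75% to 41.78% of reads, entered neither library sizes nor tests.

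CPM is the count scaled to the gene counts of the library, without further scaling. CPM per kb divides it by the length of a coding mRNA of the GENCODE v29 basic set. An mRNA marked there as principal was preferred, and then the longest. The main test was edgeR's quasi-likelihood test (version 4.0.16, R 4.3.3) with TMM scaling, on genes kept by filterByExpr for the 7 groups. All 14 libraries entered 1 fit with a mean for each group and 7 residual degrees of freedom, so the groups share 1 estimate of the spread. The pair labelled siBANF1, whose members differed by a median of 4.43 on the log2 scale, enters that estimate in every comparison. Called means an adjusted p (Benjamini-Hochberg, over all 19126 genes) under 0.05. Alternatives were scaling by relative log expression, every gene with at least 1 count, the Wald test of DESeq2 1.42.0, voom with group weights in limma 3.58.1, the compared libraries only, a replicate block and leaving out each library.

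Where a group had no count, 3 counts over the group set the bound. Ratios of pooled counts have 95% Clopper-Pearson intervals, and intervals and bounds cover counting error only. Named were the 6 chemokines, the targeted genes, the 6 most similar genes by Pearson r, tested neighbours within 500 kb, and of each of 6 gene lists (65 genes) the called genes, at most the 3 with the largest change. The members and lists were chosen with earlier results of these data known. Figures were drawn with matplotlib 3.10.9 in Python 3.11.15.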

Additional observations from a re-analysis of the deposited data

Results flagged for a closer look

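Among the 4 libraries that carry the label of ICM alone, CXCL5 in ICM 1 (38.75 CPM) stood apart from the other 3, by a gap of 0.846 of the whole range, and CXCL2 in ICM 2 (7.204 CPM) by a gap of 0.83. Chance flags about 1 group in 20 where the 4 values come from 1 population. The 4 libraries carry the same treatment label but come from both sets, so that rate need not hold here.

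CXCL1 and CXCL5 differed between the sets of ICM libraries. The difference was tested as ICM 3 and 4 against ICM 1 and 2, with log2 fold changes of -8.38 for CXCL1 and -8.19 for CXCL5 (edgeR adjusted p = 0.0124 and 0.0180). Both calls were lost in voom (adjusted p = 0.201 and 0.236) and without ICM 3 or ICM 4 (edgeR adjusted p = 0.0801 to 0.112), and that of CXCL5 without ICM 1 (edgeR adjusted p = 0.0822) and in the compared libraries only (edgeR adjusted p = 0.0576). Whether set or treatment goes with the difference from WT cannot be told apart. Small RNAs took 3.19% to 6.06% of gene counts in ICM 1, ICM 2 and the libraries labelled siSRRM2 and siBANF1, and at most 0.0123% in the second set, and its part in the difference was not tested.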

How the results depend on the processing

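Of 394 results for single members under the alternatives, 320 kept their direction and their side of the threshold, 33 gained a call, 20 lost one and 21 changed sign, the last all in knockdown comparisons, where no member was called. The cause of these changes was not tested, and only 2 libraries per group limit every test. Scaling by relative log expression changed no member's call.

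Among members, the count called in edgeR with every gene of at least 1 count was 6 for ICM 1 and 2 against WT, 4 for ICM 3 and 4 against ICM 1 and 2, 2 for siHMGB2, 1 for the libraries labelled siSRRM2 and 5 for those labelled siBANF1. ICM 3 and 4 against ICM 1 and 2 had 4 members called in DESeq2, 0 in voom, 1 in the compared libraries only, and 0 to 2 with 1 library left out. ICM 3 and 4 against WT had 1 to 3 members called with 1 library left out. siHMGB2 against WT had 2 in the compared libraries only. The siBANF1-labelled comparison had 0 or 1 with 1 library left out.

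Over all genes, calls for ICM 1 and 2 against WT numbered 3883 without the filter, 4010 in DESeq2, 1184 in voom, 0 in the compared libraries only (3664 at an unadjusted p under 0.05) and 545 to 3612 with 1 library left out. For ICM 3 and 4 against WT they numbered 10143 in voom and 1922 to 2602 with 1 library left out. For ICM 3 and 4 against ICM 1 and 2 they numbered 1373 in voom, 136 in the compared libraries only and 1206 to 6059 with 1 library left out. For siHMGB2 they numbered 94 without the filter, 73 in DESeq2, 924 in voom and 1668 in the compared libraries only. For the siSRRM2-labelled libraries they numbered 814 without the filter, 727 in DESeq2, 7 in voom, 0 in the compared libraries only (1488 at an unadjusted p under 0.05) and 1 to 47 with 1 library left out. For the siBANF1-labelled libraries they numbered 161 without the filter, 17 in DESeq2 and 0 to 81 with 1 library left out.

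With the replicate number as a block, members called numbered 3 for ICM 1 and 2 against WT (CXCL6, CXCL1, CXCL5), 5 for siHMGB2 against WT (all but CXCL6) and 0 for the other knockdowns, and all genes called numbered 1183, 2443, 34 (siSRRM2-labelled), 1 (siBANF1-labelled) and 4 (siCTCF). The labels do not say that the numbers pair libraries. The correlation of replicate differences across genes was -0.14 for ICM 1 and 2 with WT, 0.15 for siHMGB2 with WT, 0.02 and 0.84 for the siSRRM2- and siBANF1-labelled libraries with ICM, and 0.71 for siCTCF with ICM 3 and 4.

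Signs changed as follows, in log2 fold changes. With 1 library left out, CXCL6 ranged from -0.24 to 0.93 for siHMGB2 against WT. For the siSRRM2-labelled libraries, CXCL5 ranged from -1.61 to 1.24 and CXCL3 from -0.20 to 0.17. For the siBANF1-labelled libraries, with the lowest values all from leaving out library 1, CXCL8 ranged from -1.39 to 3.46, CXCL6 from -4.43 to 2.72, CXCL1 from -1.74 to 4.14, CXCL5 from -2.73 to 3.66 and CXCL3 from -0.55 to 3.87. For siCTCF, CXCL8 ranged from -0.68 to 0.72, CXCL1 from -1.10 to 0.45, CXCL5 from -1.08 to 4.61 and CXCL3 from -1.38 to 0.98. In voom, CXCL6 was -1.29 for the siBANF1-labelled libraries and CXCL5 was 0.78 for siCTCF, and without the filter CXCL5 was 0.00 for siCTCF. CXCL1, CXCL5 and CXCL6 had at most 4 counts in each library of the second set, so depth limits any comparison within it.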
